A study of Mus musculus with 4 samples.

Results

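The adenylate kinase family was examined for RFX2 binding in mouse testis through 8 genes chosen by name, Ak1, Ak3, Ak4, Ak5, Ak6, Ak7, Ak8 and Ak9, out of 21938 protein-coding genes. The list is one of names, with no threshold on a measured value. Following the given grouping, Ak7, Ak8 and Ak9 were taken as the 3 axonemal isoforms and set beside the 5 others. RFX2 ChIP-seq, in which DNA bound by a protein is recovered with an antibody and sequenced, was carried out on testes of 2 WT mice (replicates 1 and 2), each with an input library of chromatin taken without the antibody. The mice were of a mixed C57BL/6, 129/Sv and FVB/N background and, per the labels, the material was decapsulated testis at 29 to 30 days of age. The study's text instead describes germ cells dissociated from younger mice, and the peak lists do not settle which age or material was used. The peak lists comprised 39825 peaks in replicate 1, 21274 in replicate 2 and 2726 in a combined list. The inputs enter only through the authors' peak calling. There were no mice lacking RFX2 among these samples, and the lists hold no expression values.

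Adenylate kinases interconvert ATP, ADP and AMP and so carry energy-rich phosphate between the sites where ATP is made and used. In a sperm flagellum those sites can be far apart, since dynein motors burn ATP along the whole axoneme, the microtubule core of cilia and flagella. RFX2 belongs to the Regulatory Factor X family, which binds the X-box, an inverted repeat found at many genes of cilia and flagella.

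The X-box form used here was read from the peaks themselves. Among all 14-base inverted repeats, GTTGCCATGGCAAC was the one most often found within 200 bp windows centred on the summits of combined peaks that do not touch the 8 genes. It was present in 163 of 2723 such windows and in 0 of 5446 windows placed 1000 bp to either side. Both strands were searched. With at most 3 mismatches, a match lay in 75.5% of the summit windows, in 1.05% of the flanking windows and in 8.98% of all promoter windows of 1501 bp. The sequences of Ak9, Ak8 and Ak1 closest to it within their peaks are shown under the repeat to make the differences visible, with bases that equal the repeat in capitals.
Repeat: GTTGCCATGGCAAC
Ak9: GTTtCCAaGGCAAC
Ak8: GgTGCtATGGCAAC
Ak1: aTctCtATGGCAAC

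All 3 keep the last 6 bases, GGCAAC, unaltered and differ from the repeat elsewhere. Numbering the repeat from its 5′ base as position 1, and naming its base before that of the gene, the Ak9 sequence differed by G4T and T8A. The Ak8 sequence differed by T2G and C6T. The Ak1 sequence differed at 4 positions, G1A, T3C, G4T and C6T, and so missed the limit of 3. These sequences are on the plus strand of GRCm38, at chr10:41303923-41303936 (Ak9), chr2:28699742-28699755 (Ak8) and chr2:32629454-32629467 (Ak1).

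RFX2 peaks lay at the promoters of all 3 axonemal isoforms and of 1 of the 5 others, Ak1. A promoter was the stretch from 1000 bp upstream to 500 bp downstream of any annotated transcription start site (TSS), and a peak counted when it met that stretch by at least 1 bp. In replicate 1, 4 of 8 genes had a promoter peak, beside 14% of all protein-coding genes. In replicate 2 the same 4 genes had one, beside 11.3% of all genes. The 2 replicates' peaks overlapped at each of the 4, beside 8.77% of all genes. In the combined list Ak1, Ak8 and Ak9 kept a promoter peak and Ak7 did not, so that 3 of 8 genes were called beside 5.26% of all genes. By group this was 2 of 3 axonemal isoforms and 1 of 5 others. Genes are not replicates, and no test was applied to these counts.

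**Figure D1:**
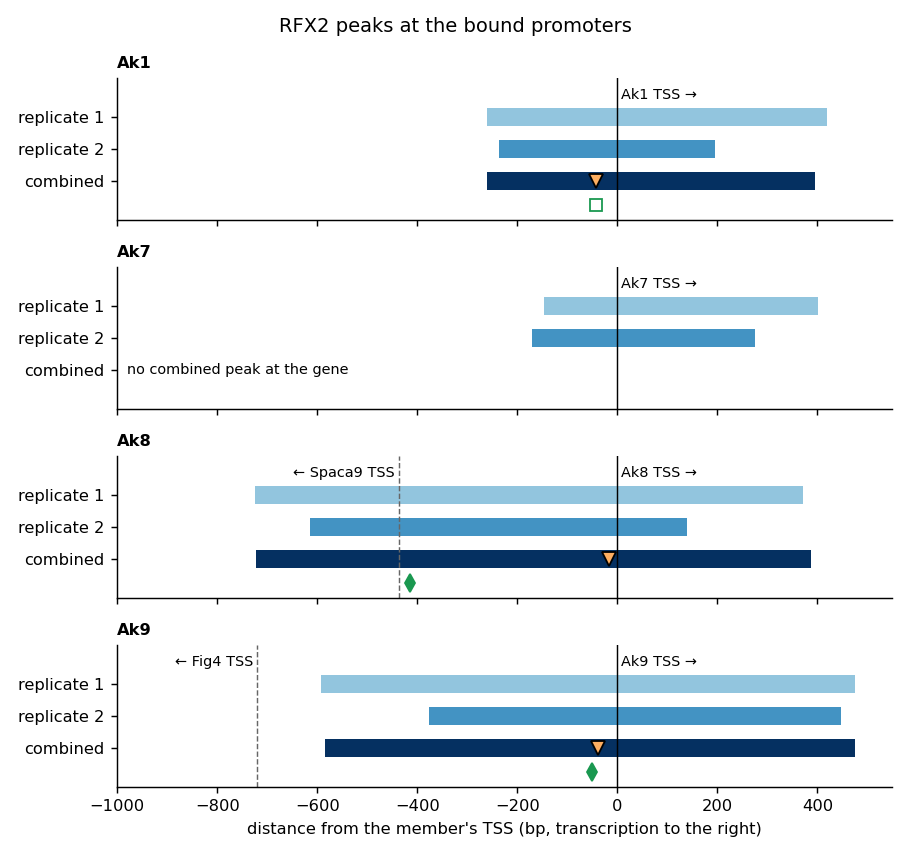
RFX2 peaks at Ak1, Ak7, Ak8 and Ak9, as bars from peak start to peak end in replicate 1, replicate 2 and the combined list, against distance from the TSS in bp. Triangles mark summits of combined peaks, filled diamonds matches to the X-box with at most 3 mismatches, the open square the Ak1 sequence with 4, and dashed lines the TSS of the divergent neighbour. The Ak9 match lies by the summit and the Ak8 match lies beside the Spaca9 TSS, 399 bp from the summit.

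Ak9 encodes a large adenylate kinase with several catalytic domains. Its peak had a score of 60.3 in replicate 1 and 43.9 in replicate 2, the score being a −log10 probability whose kind, p or q, is not stated for the replicate lists. Promoter peaks had a median score of 12.6 in replicate 1 and 10.3 in replicate 2, so the Ak9 peak was well above the middle of both lists. It ranked 1441 of 39825 and 619 of 21274 peaks. In the combined list the peak spanned chr10:41303395-41304456, with a −log10 p of 109, a fold enrichment of 17.3 over local background and rank 901 of 2726. The median of combined promoter peaks was 103 for −log10 p and 15.0 for fold enrichment, close to the values of Ak9. The summit was 38 bp upstream of the TSS at position 41303980.

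The Ak9 X-box was centred 12 bp upstream of the summit and 50 bp upstream of the GENCODE TSS. It is printed below with the bases before it, since it is the only one of the family's matches with at most 3 mismatches that lies within 100 bp of its summit, with the repeat in capitals (chr10:41303907-41303936, GRCm38, plus strand).
Ak9 site: tgcacgccgcccacagGTTTCCAAGGCAAC

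RefSeq places the Ak9 start at position 41303934, inside this match, whereas GENCODE places it downstream, so the match is either at or just upstream of the start depending on the annotation. Fig4, which encodes a phosphoinositide phosphatase, starts 720 bp away on the opposite strand. The combined summit was 682 bp upstream of the Fig4 TSS, so the peak also counted for the Fig4 promoter under the window used.

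Ak8, an adenylate kinase of cilia, had a peak score of 33.0 in replicate 1 and 34.3 in replicate 2. Both scores were above the medians of promoter peaks, with ranks 2771 and 895. The combined peak, chr2:28699442-28700552, had a −log10 p of 62.7, a fold enrichment of 13.1 and rank 1855 of 2726. It exceeded 20.6% of the combined promoter peaks, so that Ak8 was among the weaker promoters of the combined list. Its summit was 16 bp upstream of the Ak8 TSS at position 28700164.

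Ak8 shares this peak with Spaca9, a gene named for a sperm acrosome-associated protein, which starts 437 bp away in the opposite direction. The X-box of the peak was not at the summit. It was centred 415 bp upstream of the Ak8 TSS and 399 bp from the summit, next to the Spaca9 TSS at position 28699727. The centres of the replicate peaks lay between both starts, 176 bp upstream of Ak8 in replicate 1 and 238 bp upstream in replicate 2. The peak lists cannot assign the binding to Ak8 or Spaca9. The bases upstream of Spaca9 are shown with the match in capitals (chr2:28699728-28699787, GRCm38, plus strand, on which Ak8 is transcribed).
Ak8 and Spaca9: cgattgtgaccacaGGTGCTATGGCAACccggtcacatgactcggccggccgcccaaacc

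Ak7, a further axonemal adenylate kinase, had the weakest of the 4 peaks. The score was 17.4 in replicate 1 and 9.32 in replicate 2, with ranks 5203 and 3824. The peaks spanned chr12:105705830-105706378 and chr12:105705805-105706252, and their centres lay 128 bp and 52 bp downstream of the TSS at position 105705976. The replicate 1 score was above the median of promoter peaks and the replicate 2 score was below it.

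The combined list had no peak at Ak7. The nearest was 250.5 kb away, in an intron of D430019H16Rik. Of the genes with overlapping promoter peaks in both replicates, 1138 had a combined promoter peak and 787, Ak7 among them, had none. Those 787 genes had median scores of 15.3 and 8.44, near the values of Ak7. Of the combined peaks, 2 had a replicate 1 score as low as that of Ak7, 176 had a replicate 2 score as low, and 0 were as low in both. The lowest −log10 p of any peak in the combined list was 43.2. Neither Ak7 peak held a match to the X-box with up to 4 mismatches, nor a copy of GGCAAC on either strand.

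Ak1, a cytosolic isoform, had the strongest peak of the family. Its score was 128 in replicate 1 and 54.5 in replicate 2, with ranks 426 and 458. The combined peak, chr2:32629244-32629899, had a −log10 p of 166, a fold enrichment of 19.7 and rank 408 of 2726, above 75.6% of the combined promoter peaks. It was thus the isoform outside the axonemal group that carried the highest score.

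The Ak1 peak was not at the start of the gene. Of 6 annotated TSSs, the peak lay at the promoter of the last 2, at positions 32629504 and 32629521, of which the former begins a protein-coding transcript 7746 bp after the first TSS. The other 4 starts had no peak in any list. The summit was 42 bp upstream of position 32629504. RefSeq also has a start there, at position 32629500.

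The Ak1 summit window held 3 copies of GGCAAC, counting both strands, centred 54, 39 and 25 bp upstream of the TSS. The summit windows of Ak9 and Ak8 held 1 and 0 copies. Among the summit windows away from the family, 69.1% had at least 1 copy and 2.83% had at least 3, against 5.69% and 0.0367% of flanking windows. GGCAAC was looked for after the data were seen, and it is part of a repeat chosen for its excess in these same windows. The level of 3 is the Ak1 count itself, so these shares are no test of Ak1. The 150 bases before the RefSeq start show the Ak1 cluster, with the copies and the sequence of 4 mismatches in capitals (chr2:32629350-32629499, GRCm38, plus strand). GTTGCC is GGCAAC read on the other strand.
Ak1 internal promoter: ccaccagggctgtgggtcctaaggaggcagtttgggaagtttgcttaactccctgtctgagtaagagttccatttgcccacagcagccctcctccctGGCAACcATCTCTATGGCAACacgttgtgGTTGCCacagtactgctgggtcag

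The order of the scores was Ak1, Ak9, Ak8 and Ak7 in both replicates. With 1 value per replicate and 2 replicates, the spread of a score cannot be estimated for a gene. Over 1830 pairs of overlapping promoter peaks, the replicate 1 score was a median of 2.01 times the replicate 2 score, and 5% of the pairs lay below 0.715 and 5% above 6.37. The ratio was 2.35 for Ak1, 1.87 for Ak7, 1.37 for Ak9 and 0.960 for Ak8. All 4 ratios lay within that range, Ak8 being the only one with the higher score in replicate 2. In each replicate the score of Ak1 was above that of Ak9. The ratios include a shift between the 2 lists that most peaks share, so they do not measure the spread of either gene's score.

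**Figure D2:**
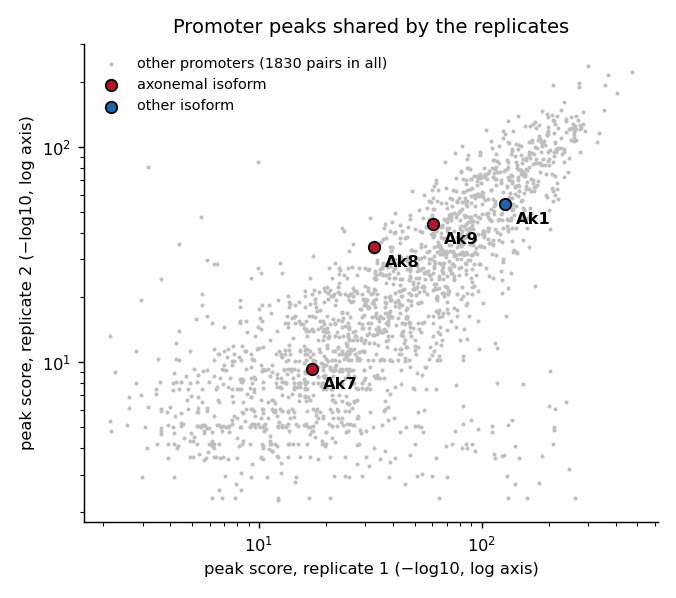
Scores of promoter peaks that overlap between replicates, replicate 1 on the x axis and replicate 2 on the y axis, both −log10 values on log axes. Grey points are all 1830 pairs, red points the axonemal isoforms and the blue point Ak1, which at 128 and 54.5 sits highest of the 4 on both axes, with Ak7 lowest at 17.4 and 9.32.

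The other 4 isoforms had no promoter peak in any list. Ak3, a mitochondrial matrix enzyme that uses GTP, had its nearest peaks in its own introns, 3.95 kb from a TSS in replicate 1 and 3.46 kb in replicate 2. These were different peaks, with scores of 4.35 and 4.08, and neither was met by the other replicate. The nearest combined peak was 59.4 kb away, at the promoter of 4430402I18Rik.

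Ak4, also mitochondrial, was the farthest from RFX2 peaks. The nearest were 61.2 kb away in replicate 1, 177 kb in replicate 2 and 883 kb in the combined list, the last in an intron of Pde4b. The median distance over all protein-coding genes was 17.0 kb in replicate 1 and 28.5 kb in replicate 2. In the combined list it was 205 kb, over the 21755 genes on chromosomes with a combined peak. Ak4 was farther than the median in all 3 lists.

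Ak5, an isoform known from brain, lay 3.28 kb from a replicate 1 peak, 49.8 kb from a replicate 2 peak in an exon of Zzz3 and 381 kb from a combined peak in an intron of Gipc2. Its gene, 205.5 kb long, held 9 replicate 1 peaks, or 43.8 per Mb against 14.6 per Mb over the genome. Their scores were 3.64 to 9.62, and none was met by replicate 2, which had 0 peaks in the gene.

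Ak6, a nuclear isoform, had its nearest peak 48.5 kb away in replicate 1 and 48.6 kb in replicate 2, at one place in an intron of Marveld2 that both replicates share. The nearest combined peak was 124 kb away, at the promoter of Cenph. Of 5 annotated Ak6 TSSs, the first lies 23 bp from the TSS of Rad17, a checkpoint gene on the opposite strand. The 2 genes overlap there, while the other Ak6 starts lie beyond the Rad17 TSS and diverge from it. The last Ak6 TSS, 647 bp after the first, begins a retained-intron transcript and is shared with Taf9, which encodes a subunit of TFIID. No list had a peak at any of these 3 promoters. Ak8 and Ak9, which had peaks, also start beside a gene on the opposite strand, 437 bp and 720 bp away. Whether this layout bears on RFX2 binding was not tested.

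**Figure D3:**
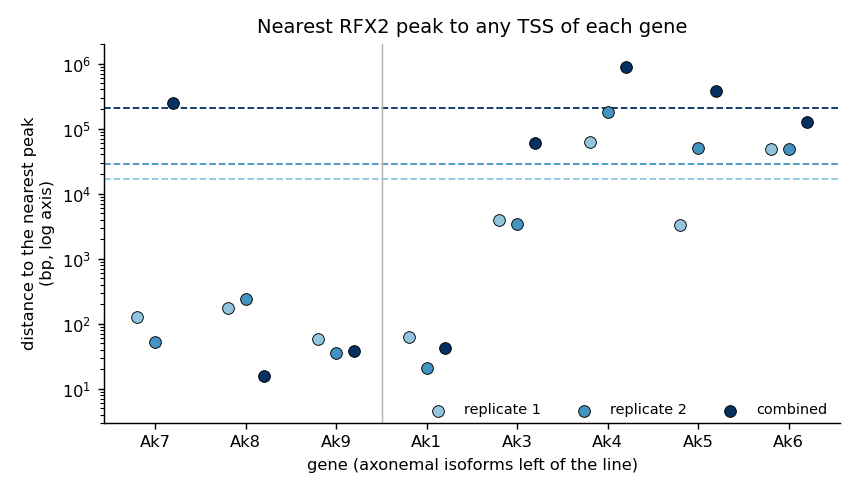
Distance in bp, on a log axis, from any TSS of each gene to the nearest peak centre or summit in replicate 1, replicate 2 and the combined list. Dashed lines are the medians over all protein-coding genes, 17.0, 28.5 and 205 kb. The last is over the 21755 genes on chromosomes with a combined peak. The axonemal isoforms and Ak1 lie below 1 kb in both replicates, and Ak7 departs from them in the combined list at 250.5 kb.

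Promoters with and without a peak overlapped in base composition. The G+C content of the promoter window at the bound TSS was 57.6% for Ak1, 51.8% for Ak7, 56.3% for Ak8 and 48.0% for Ak9. At the first TSS of the unbound genes it was 59.7% for Ak3, 56.8% for Ak4, 56.4% for Ak5 and 53.0% for Ak6. The median over all promoter windows was 51.7%. X-boxes with at most 3 mismatches were found at Ak8 and Ak9 among the 8 genes, beside 17.6% of all protein-coding genes, a count near that share. The best match in the promoters of Ak3 and Ak6 had 5 mismatches and in those of Ak4 and Ak5 it had 4, and 41.8% of all promoter windows hold a match with up to 4. A match with at most 3 mismatches lay in 75.5% of the summit windows and not in all of them. A missing match therefore does not by itself show that RFX2 is absent.

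Other enzymes that pass on phosphate were counted the same way, from lists of 29 genes. Of these, 10 had a promoter peak in replicate 1 and 5 in replicate 2, beside 14% and 11.3% of all protein-coding genes. Overlapping peaks in both replicates were present at 5 genes, beside 8.77% of all genes, and combined peaks at 4, beside 5.26%. Among 9 nucleoside diphosphate kinases, which transfer phosphate between nucleoside triphosphates and diphosphates, 3 were bound in both replicates and the combined list. Nme7 had scores of 169 and 105 and a combined −log10 p of 238, rank 134. Nme5 had 85.7, 39.4 and 112, and Nme9 had 51.7, 23.3 and 69.8. Nme7 was above every adenylate kinase in all 3 lists, whereas the Nme5 and Nme9 scores lay within the range of the family.

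None of Nme1, Nme2, Nme3, Nme4 and Nme6 had a promoter peak in any list, and Nme8 had one of score 4.47 in replicate 1 alone. Of the 4 listed nucleoside monophosphate kinases, Cmpk2 had peaks in both replicates, with scores of 17.5 and 10.2, close to those of Ak7, and likewise none in the combined list. Dtymk, the thymidylate kinase, had a replicate 1 peak only, of score 5.99. The 4 creatine kinases had 0 promoter peaks, beside 14%, 11.3% and 5.26% of all protein-coding genes in the 3 lists. With 4 genes, a count of 0 is near those shares. Among 12 genes of sperm glycolysis and of ADP/ATP exchange, 4 had a promoter peak in replicate 1, beside 14% of all protein-coding genes. In replicate 2, in both replicates and in the combined list it was 1, beside 11.3%, 8.77% and 5.26%, a count near those shares. That gene was Eno4, a sperm enolase, with scores of 84.1 and 47.4 and a combined −log10 p of 114. Pfkp, Aldoart1 and Pkm had replicate 1 peaks only, of scores 3.64, 6.46 and 4.24.

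**Figure D4:**
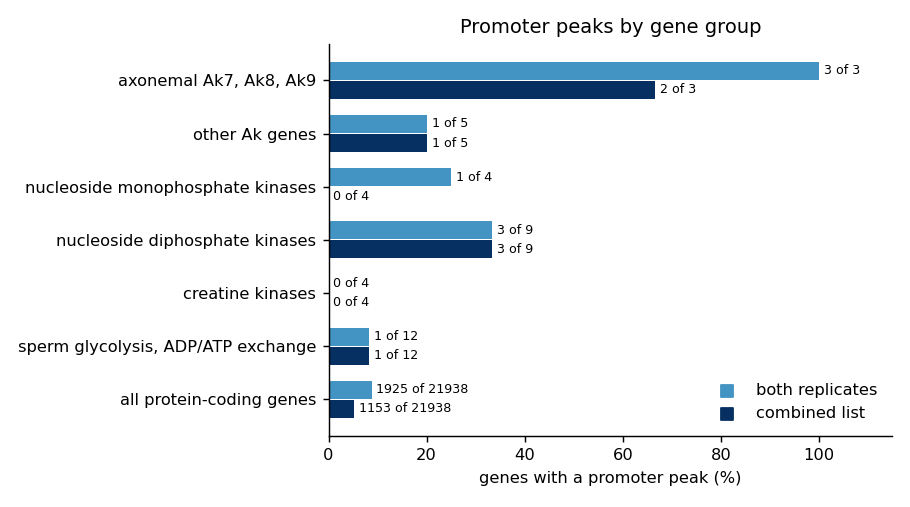
Percent of genes with overlapping promoter peaks in both replicates (light bars) and with a combined promoter peak (dark bars), by gene group, with counts at the bar ends. The axonemal isoforms have 3 of 3 and 2 of 3, the other isoforms 1 of 5 in each, and all protein-coding genes 8.77% and 5.26%.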

How the data were processed

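RFX2 ChIP-seq peaks from testes of 2 WT mice were used as deposited. Per the authors' methods, reads were mapped to GRCm38 with Bowtie and peaks were called against input with MACS2 (versions in the submitters' processing notes: Bowtie 0.12.7, MACS2 2.0.10.20130520). Reads of human origin were removed from a repeat run of replicate 2. Each peak of the authors' replicate lists has 1 value, a −log10 probability not stated to be p or q. The deposited combined list gives a score, the fold enrichment as a ratio, −log10 p, −log10 q and a summit. The study's methods select reproducible peaks by the irreproducible discovery rate (IDR) between replicates, and the combined list is close to that selection in length but not equal to it. Whether it is that selection is not stated. It was read as a call on both replicates, which is not independent of them. Read depth is unknown, as the lists hold no counts.

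TSSs came from GENCODE M21, and sequence from GRCm38 patch 6 read with pysam 0.24.0. Printed sequences come from the genome, and RefSeq exons, predicted models included, were avoided beyond 30 bases. Replicate peaks that met by 1 bp or more were called overlapping. Distances run from a TSS to the summit or, in replicate lists, the peak centre. Overlap and palindrome searches were tested on simulated data. The genes named were the 8 members, genes starting within 1000 bp of them, genes nearest to their nearest peaks and listed phosphotransfer genes with a combined peak. Cmpk2, Dtymk, Nme8, Pfkp, Aldoart1, Pkm and the unbound Nme genes were added after their values were seen. The members and lists were chosen with earlier results of these data known, and no test was run over them. A gene of the phosphotransfer lists is not reported here and was left out of their counts.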

Additional observations from a re-analysis of the deposited data

How the results depend on the processing

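Of 97 recomputed values about the adenylate kinases, their X-boxes and the phosphotransfer lists, 77 were identical, 11 changed by no more than 1.5 times and 9 moved further. The count of reversals was 0, but these values are counts without a sign and could not reverse. They also overlap, since the count of all members combines the 2 groups. The 11 were, with the 5′-most TSS, all members (4 to 3 in replicate 1, replicate 2 and both, 3 to 2 in the combined list) and phosphotransfer genes (5 to 4 in replicate 2 and in both, 4 to 3 in the combined list). Phosphotransfer genes in replicate 1 went from 10 to 8 with the narrow promoter and in the top 50% of peaks, and in that top 50% the combined list went from 3 to 2 members and from 4 to 3 phosphotransfer genes. With only the 5′-most TSS, the other isoforms with a promoter peak went from 1 to 0 in replicate 1, replicate 2, both replicates and the combined list, since the Ak1 peak lies at an internal start. Phosphotransfer genes in replicate 1 then went from 10 to 5. For the phosphotransfer genes, the 5′-most TSS was chosen after seeing the data in every list. A recount with RefSeq TSSs, also unplanned, left the adenylate kinase counts unchanged. In the top 50% of each list, axonemal isoforms in the combined list went from 2 to 1, as Ak8 ranks below the middle of that list. Combined peaks of the family with an X-box rose from 1 to 2 with at most 4 mismatches (Ak1 and Ak9), over the whole peak (Ak8 and Ak9) and with only GGCAAC required (Ak1 and Ak9, chosen after seeing the data). Requiring 1 replicate alone gave 4 of 8, which repeats the counts of the single lists. Of the shares over all genes, 21 moved. With the 5′-most TSS they were 9.65% in replicate 1, 8.21% in replicate 2, 6.97% in both and 4.43% in the combined list. No paired analysis was possible because the lists hold called peaks of 1 group, with no second group to pair. Without read counts, a promoter without a peak cannot be told from one bound below the calling threshold.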
